A study of Mus musculus with 6 samples.

Results

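The genes described here are 10 genes of redox defence: the glutathione peroxidases Gpx1, Gpx4 and Gpx8, the glutathione synthesis genes Gclc and Gclm, the thioredoxin-linked genes Txnrd1, Srxn1 and Txnip, the haem oxygenase gene Hmox1 and the superoxide dismutase gene Sod2. They were taken by gene symbol from the 22180 genes that had a probe set annotated to a single symbol, and all 10 were found, each with 1 such probe set. RNA was measured on 6 single-colour Affymetrix arrays of mouse splenic CD8+ T cells, which had been sorted as naive cells. Both groups were activated with anti-CD3 (1 µg/ml) and anti-CD28 (3 µg/ml) in a 4-day culture and were given IL-2 on the day that followed 3 days of polarising cytokine. The Tc1 cultures received IL-12 and the Tc17 cultures received IL-6 and TGFb. Each group held 2 biological samples, and sample 2 was also hybridised as a technical array, so that a group had 3 arrays and n = 2. The labels name no strain, sex or age, do not say whether the samples came from separate animals, and include no unpolarised culture. Rose and fell below therefore mean higher or lower in Tc17 than in Tc1, and which culture moved cannot be told. Both words, and counts made with them, are used only for genes that passed the test given below.

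Cells limit oxidative damage with linked enzyme systems. Superoxide dismutases turn superoxide into hydrogen peroxide, which peroxidases then reduce with electrons drawn from glutathione or thioredoxin, and NADPH recharges both carriers. Gpx1, Gpx4 and Txnrd1 carry selenocysteine at the active site, whereas Gpx8, an enzyme of the endoplasmic reticulum membrane, carries cysteine. The transcription factor NRF2, encoded by Nfe2l2, switches on many of these genes through the antioxidant response element, and BACH proteins oppose it at the same element. In activated T cells glutathione buffers the peroxide made during growth, and TXNIP restrains both thioredoxin and glucose uptake.

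Among the 10 genes Gpx8 fell in Tc17, by 5.69-fold in array intensity, and no other gene passed the test. Hmox1 was 1.46-fold lower without passing. The remaining 8 genes differed by less than 0.2 on the log2 scale in either direction. Counting by limma's moderated test, with Benjamini-Hochberg adjustment over the whole table of 41345 probe sets and calls at an adjusted p under 0.05, 1 of 10 was lower and 0 were higher, while an unadjusted p under 0.05 was reached by 2 of 10 (Gpx8 and Hmox1). The background in the same comparison was 1.58% of the 22180 genes called in either direction, 0.591% lower and 0.992% higher, and 15.9% with an unadjusted p under 0.05. The median difference was 0.0011 over the 10 genes and −0.013 over all genes. A limma 95% interval lay within 1 log2 unit of 0 for 9 of the 10, and within 0.5 for 7.

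**Figure D1:**
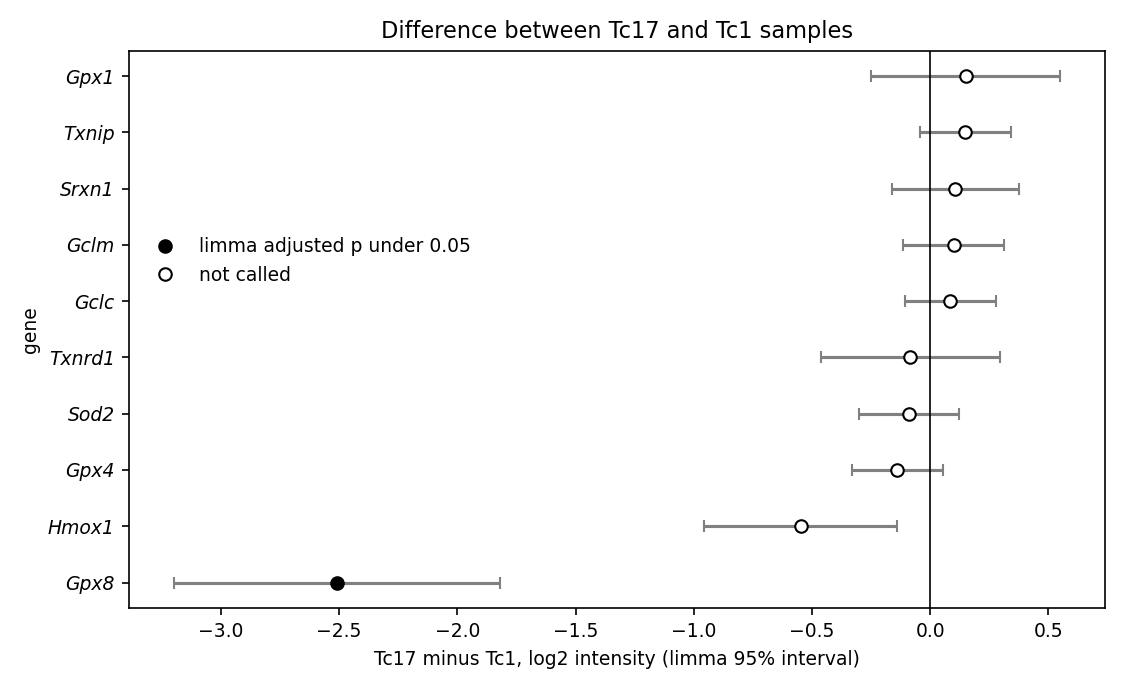
The x axis is the difference Tc17 minus Tc1 in RMA log2 intensity and the y axis lists the 10 genes; points are limma estimates from 2 samples per group and bars are 95% intervals. Gpx8 lies at −2.51 with an interval from −3.20 to −1.82, and the other genes lie between −0.55 and 0.15.

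Promoter sequences were taken from RefSeq (GRCm38.p6), as windows of 300 bases with 250 before and 50 from the transcription start. Of the 10 genes 8 were matched by symbol, with 13 windows; Gclc and Hmox1 had no match and were not searched. Gpx8 is shown because it is the member that passed the test. The 250 bases before its start, at chr13:113046389-113046638 on the minus strand, are printed in lower case, since neither motif searched was present.

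Gpx8: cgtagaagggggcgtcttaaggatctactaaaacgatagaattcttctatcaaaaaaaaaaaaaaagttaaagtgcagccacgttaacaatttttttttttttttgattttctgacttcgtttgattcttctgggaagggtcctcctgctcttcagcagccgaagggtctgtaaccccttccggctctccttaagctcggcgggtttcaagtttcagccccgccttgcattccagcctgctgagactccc

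The motifs were the core of the antioxidant response element, TGACNNNGC, and the E-box CACGTG, searched on both strands. The first was found in windows of 3 of the 8 genes, against 14% of 27025 genes. By window it was found in 3 of 13, against 12.4% of all 32851 windows. The E-box was found in 0 of the 8, so no 2 matches overlapped, against 8.09% of genes (7.15% of windows). The 3 matches, all on the strand opposite to the gene, are given because they are the only matches found in these windows. They lie in Srxn1, Gclm and Txnrd1, all known targets of NRF2. Whether NRF2 binds at these matches was not tested. Each is printed on the gene's own strand with 10 bases on either side, and capitals mark the match, so the capitals read as the reverse complement of the core. The Srxn1 stretch is chr2:152105542-152105570 on the plus strand, with the match starting at base 29 after the start. The Gclm stretch is chr3:122245413-122245441 on the plus strand, with the match starting 134 bases before the start. The Txnrd1 stretch is chr10:82859104-82859132 on the plus strand, with the match starting 92 bases before one of the gene's annotated starts.
Srxn1: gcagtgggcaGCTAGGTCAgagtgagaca
Gclm: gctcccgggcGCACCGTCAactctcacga
Txnrd1: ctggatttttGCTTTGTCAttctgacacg

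Values below are RMA log2 intensities, in which 1 unit is a factor of 2, and each gene's arrays are given in the order sample 1, sample 2 and the technical array of sample 2. A fold is a ratio of intensities on 1 probe set. Levels of different probe sets cannot be compared, and no array carried a detection call. The medians of the 6 arrays lay between 6.04 and 6.09, and 9 of the 10 genes were above the median of every array. In bulk RNA, fewer cells making a transcript and less of it per cell cannot be told apart.

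Of the 3 glutathione peroxidase genes among the 10, Gpx8 fell. Gpx8 (probe set 17296281), which uses peroxide in the endoplasmic reticulum during protein folding, measured 8.34, 8.84 and 8.93 in Tc1 and 5.84, 6.50 and 6.24 in Tc17. All Tc17 arrays lay below all Tc1 arrays, and the gap between the groups was wider than the spread within either. The means were 8.61 ± 0.39 in Tc1 and 6.10 ± 0.38 in Tc17 (SD, n = 2), a difference of −2.51 ± 0.26 (SE, limma adjusted p = 0.0387). By size of decrease Gpx8 was number 28 of the 22180 genes. In both groups sample 1 was lower than sample 2, by 0.55 in Tc1 and by 0.54 in Tc17. The Tc17 values straddled the array medians, and the array of Tc17 sample 1 lay below its own median of 6.04, so signal above background was not shown there and the fold holds for intensities. With 1 sample left out the difference kept its direction and most of its size, while the call was lost: it was −2.78 without Tc1 sample 1 (limma adjusted p = 0.0996) and −2.23 without Tc1 sample 2 (0.129), and −2.24 without Tc17 sample 1 (0.146) and −2.78 without Tc17 sample 2 (0.0873). Each such fit leaves 1 sample in a group, which is assumed to vary like the samples of the other group, and over all probe sets it made 48 to 125 calls against 418, so a call lost there does not show that a difference rests on the sample left out.

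Gpx1 (probe set 17521681), the abundant peroxidase of cytosol and mitochondria, measured 11.75, 11.36 and 11.45 in Tc1 and 11.84, 11.64 and 11.59 in Tc17. The groups overlapped, and sample 1 was the higher sample in each. The difference was 0.15 ± 0.15 (SE, limma adjusted p = 0.763), with a 95% interval from −0.25 to 0.55, and it was smaller than the 0.35 between the Tc1 samples. It turned to −0.023 without Tc1 sample 2.

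Gpx4 (probe set 17235166), which reduces lipid peroxides in membranes and so holds off ferroptosis, measured 8.72, 8.87 and 8.67 in Tc1. In Tc17 it measured 8.59, 8.65 and 8.58. Every Tc17 array was below every Tc1 array, but by as little as 0.02 between the nearest arrays, less than the 0.19 between the array of Tc1 sample 2 and its technical repeat. The difference was −0.14 ± 0.07 (SE, limma adjusted p = 0.533), with a 95% interval from −0.33 to 0.05.

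The peroxidases Gpx2, Gpx3, Gpx5, Gpx6 and Gpx7, listed for comparison, had differences between −0.10 and 0.04, and none of the 5 passed. However, 3 of them were at or below the median on all arrays. Gpx2 measured 4.50 ± 0.41 in Tc1 and 4.40 ± 0.11 in Tc17 (SD, n = 2), and Gpx3 6.19 ± 0.04 and 6.12 ± 0.02. The fall of Gpx8 was thus the only call among the 8 glutathione peroxidase genes measured.

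**Figure D2:**
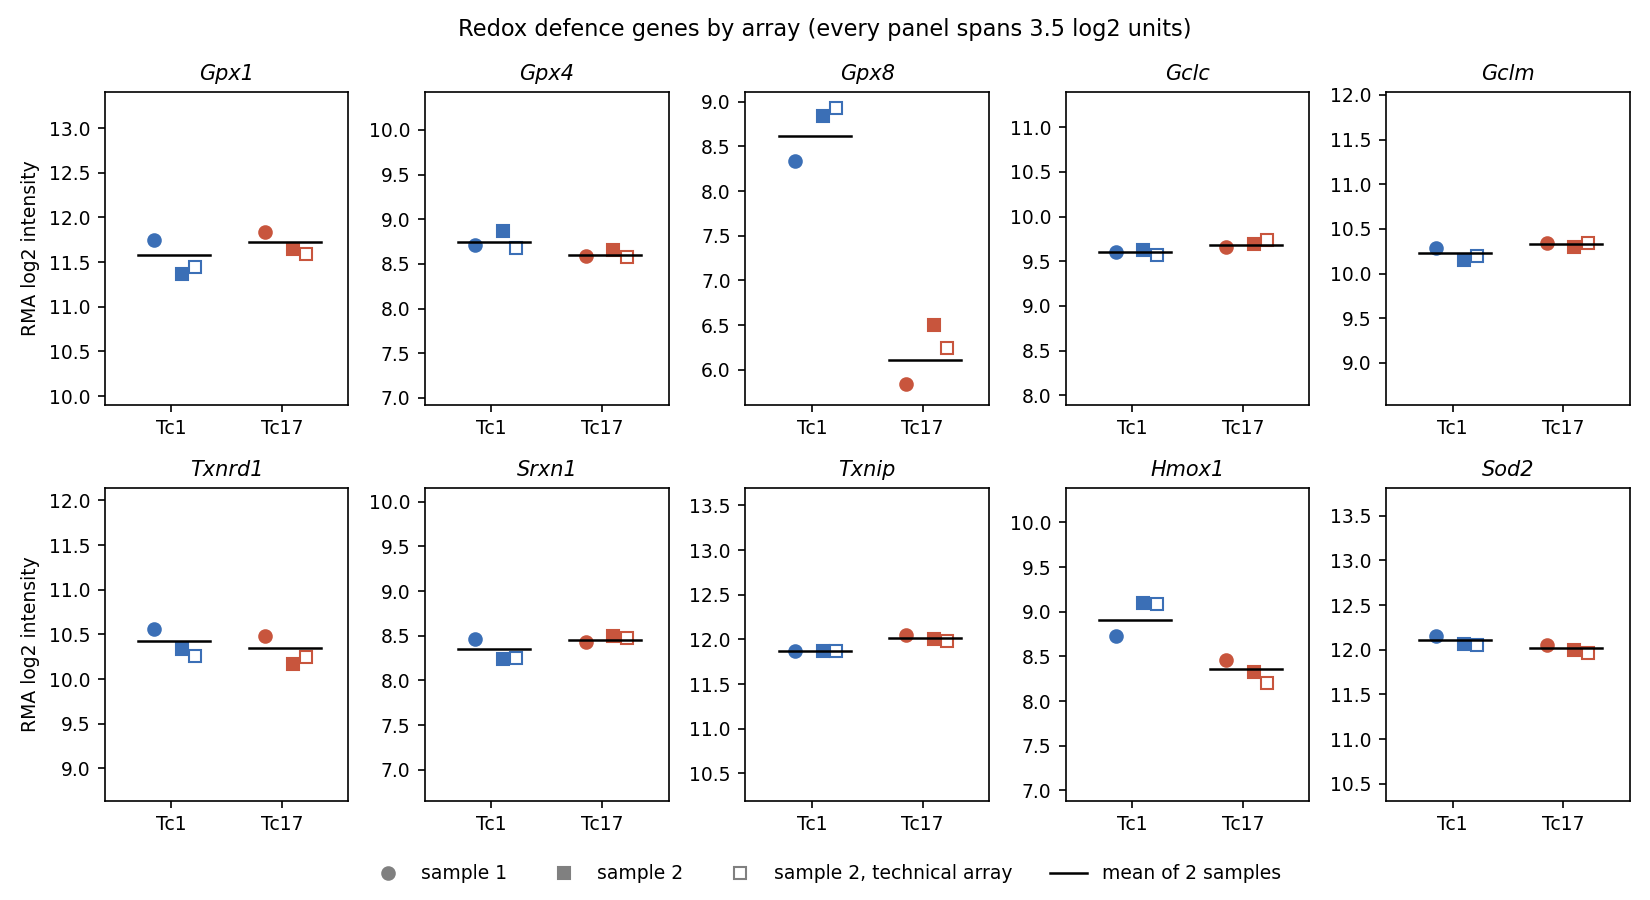
Each panel shows 1 gene, with RMA log2 intensity on the y axis and culture on the x axis; circles are sample 1, filled squares sample 2, open squares its technical array and lines the mean of the 2 samples. Each panel spans the same number of log2 units around its own centre: the means are 8.61 and 6.10 for Gpx8 and 8.91 and 8.36 for Hmox1, and in the other panels the group means lie within 0.15 of each other.

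Neither gene of glutathione synthesis passed the test. Gclc (probe set 17519579), the catalytic subunit of the rate-limiting glutamate-cysteine ligase, measured 9.60, 9.63 and 9.57 in Tc1 and 9.66, 9.69 and 9.73 in Tc17. Gclm (probe set 17402283), the modifier subunit that raises the ligase's affinity for its substrate, measured 10.29, 10.15 and 10.20 in Tc1 and 10.35, 10.30 and 10.34 in Tc17. For both subunits all Tc17 arrays were above all Tc1 arrays by a narrow margin. The difference was 0.09 ± 0.07 for Gclc, with a 95% interval from −0.11 to 0.28 (SE, limma adjusted p = 0.712). It was 0.10 ± 0.08 for Gclm, with an interval from −0.11 to 0.31 (SE, limma adjusted p = 0.696), and the Tc1 samples of Gclm differed by 0.12.

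Among 19 measured genes of glutathione supply and recycling 1 rose and 0 fell, with a median difference of −0.13. The gene that rose was Ggt7, a member of the gamma-glutamyltransferase family, from 7.82 ± 0.07 to 8.63 ± 0.05 (SD, n = 2; difference 0.81, limma adjusted p = 0.0343). The difference ran from 0.76 to 0.86 with 1 sample left out, without passing (limma adjusted p = 0.129 to 0.209), and the call was also lost without the technical arrays and with trend and robust moderation. Its relative Ggt5 had a difference of 1.27 and did not pass (limma adjusted p = 0.0545); its 3 Tc1 arrays were below the array medians. Glrx, the glutaredoxin that removes glutathione from proteins, had a difference of −1.09 ± 0.23 (SE, limma adjusted p = 0.16). Glrx measured 11.32, 11.78 and 11.72 in Tc1 and 10.19, 10.65 and 10.75 in Tc17, so its arrays did not overlap.

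Of 24 glutathione transferases measured, Mgst3, a membrane-bound transferase, rose and 0 fell, with a list median of 0.06. Mgst3 went from 6.99 ± 0.04 to 7.70 ± 0.08 (SD, n = 2; limma adjusted p = 0.0489). The difference of 0.71 ran from 0.65 to 0.77 with 1 sample left out, without passing (limma adjusted p = 0.155 to 0.25), and it missed the threshold in 5 of the 11 settings that kept all samples, median centring and quantile normalization among them. Gstt3 and Gstm1, cytosolic transferases, had differences of 0.63 and 0.44 and did not pass.

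The thioredoxin-linked genes did not pass either. Txnrd1 (probe set 17235915), the reductase that recharges thioredoxin with NADPH, measured 10.56, 10.33 and 10.26 in Tc1 and 10.48, 10.17 and 10.25 in Tc17. The groups overlapped, and sample 1 exceeded sample 2 by 0.27 in each, more than the groups differed. The difference was −0.08 ± 0.14 (SE, limma adjusted p = 0.868), with a 95% interval from −0.46 to 0.29, and it turned to 0.049 without Tc1 sample 1 and to 0.052 without Tc17 sample 2.

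Srxn1 (probe set 17377666), the sulfiredoxin that repairs overoxidised peroxiredoxins, measured 8.46, 8.23 and 8.25 in Tc1 and 8.43, 8.50 and 8.47 in Tc17. Tc1 sample 1 lay among the Tc17 values. The difference was 0.11 ± 0.10 (SE, limma adjusted p = 0.745), with a 95% interval from −0.16 to 0.37, and it was −0.0017 without Tc1 sample 2.

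Txnip (probe set 17400599), the thioredoxin-binding arrestin, measured 11.87 on each Tc1 array. In Tc17 it measured 12.05, 12.00 and 11.98, above all Tc1 arrays. The group means were 11.87 ± 0.0039 and 12.02 ± 0.04 (SD, n = 2), and the difference of 0.15 ± 0.07 (SE) did not pass (limma adjusted p = 0.499; 95% interval from −0.04 to 0.34). A further probe set annotated jointly to Txnip and another gene was not used.

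The wider thioredoxin system gave no call among 21 measured genes, with a median of 0.02. Map3k5, the stress kinase held inactive by reduced thioredoxin, had a difference of −0.60 ± 0.15 (SE, limma adjusted p = 0.206). Msra, a thioredoxin-dependent repair enzyme for oxidised methionine, had one of 0.47 ± 0.08 (SE, limma adjusted p = 0.103). None of 6 measured peroxiredoxin and sestrin genes passed, and the largest difference was that of Sesn3, an inhibitor of mTORC1 signalling, at 0.96 ± 0.19 (SE, limma adjusted p = 0.151). Prdx2, a cytosolic peroxiredoxin, had a difference of 0.26. Prdx1, Prdx5 and Prdx6 had no probe set annotated to that symbol alone and were not measured. None of 13 alpha-arrestin and glucose-sensing genes chosen as the surroundings of Txnip passed; the glucose transporter gene Slc2a3 and the sensor partner gene Mlx had differences of −0.33 and −0.28.

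Hmox1 (probe set 17502573), whose enzyme breaks haem down to biliverdin, iron and carbon monoxide, measured 8.73, 9.10 and 9.08 in Tc1. It measured 8.46, 8.32 and 8.20 in Tc17, below every Tc1 array. The means were 8.91 ± 0.26 and 8.36 ± 0.14 (SD, n = 2), and the difference of −0.55 ± 0.16 (SE) had an unadjusted limma p of 0.0191 and an adjusted p of 0.257. Its 95% interval ran from −0.96 to −0.14. It passed when the technical arrays were counted as separate samples, were given a random block or were averaged with sample 1 instead (limma adjusted p = 0.031, 0.0386 and 0.0277); no other setting called it, with adjusted p from 0.137 to 0.534.

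Sod2 (probe set 17333347), the mitochondrial superoxide dismutase, measured 12.15, 12.06 and 12.05 in Tc1 and 12.05, 12.00 and 11.97 in Tc17. The groups touched without overlapping. The difference was −0.09 ± 0.08 (SE, limma adjusted p = 0.729), with a 95% interval from −0.30 to 0.12. Its size, 0.0893, was below the 0.094 between the Tc1 samples. Of the other dismutase genes and catalase 0 of 4 passed; Sod1, the cytosolic form, had a difference of 0.05, and Ccs, its copper chaperone, one of 0.26.

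The 10 genes had no common direction: 5 differences were above 0 and 5 below. The group difference was smaller than the larger of the 2 gaps between samples of a group for 5 of them (Gpx1, Gclm, Txnrd1, Srxn1 and Sod2). The median gap between samples 1 and 2 was 0.17 in Tc1 and 0.06 in Tc17 over the 10 genes, and 0.10 and 0.09 over all genes. Between sample 2 and its technical array it was 0.05 in both groups over the 10, and 0.07 and 0.08 over all genes. The median size of the group difference was 0.12 over the 10 and 0.09 over all genes. In 7 of the 10 the 3 arrays of one group lay entirely beyond the 3 of the other, 4 lower and 3 higher in Tc17. That separation was present in 29.7% of all genes and in 39.8% of the 12539 genes that were above the median of every array. Because the arrays stem from 2 samples per group, an exact permutation test of any 1 gene could not go below p = 0.333.

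**Figure D3:**
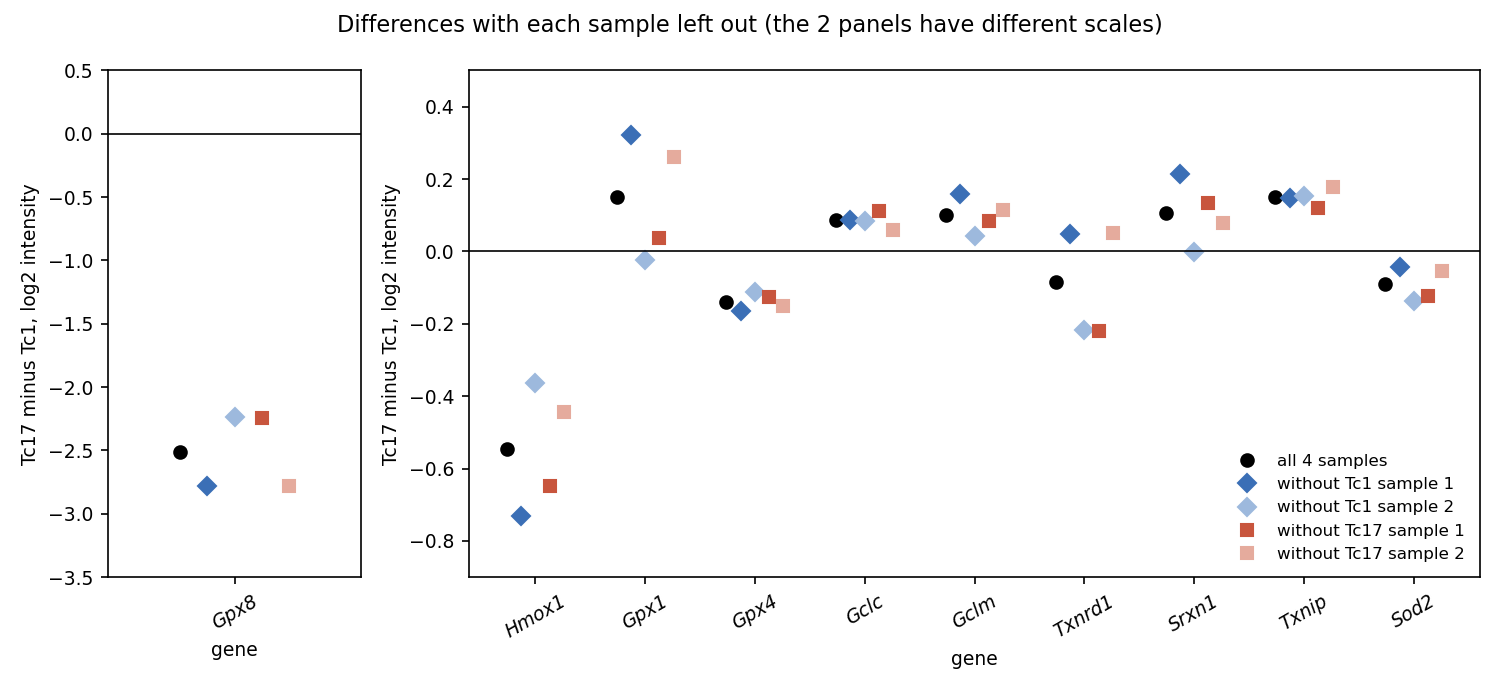
The y axes give the difference Tc17 minus Tc1 in log2 intensity with all 4 samples (circles) and with 1 biological sample left out (diamonds for Tc1, squares for Tc17), and the x axes name the gene; the scales of the panels differ. Gpx8 stays between −2.78 and −2.23, Hmox1 between −0.73 and −0.36, and Gpx1, Txnrd1 and Srxn1 cross 0.

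The gene of the upstream regulator did differ between the groups. Nfe2l2, which encodes NRF2, measured 9.62, 9.58 and 9.66 in Tc1 and 10.93, 10.68 and 10.79 in Tc17. It rose 2.32-fold, a difference of 1.22 ± 0.10 (SE, limma adjusted p = 0.0205). Beside it stand the differences of NRF2's targets among the 10 genes: 0.09 for Gclc, 0.10 for Gclm, −0.08 for Txnrd1, 0.11 for Srxn1 and −0.55 for Hmox1, none of which passed. Whether these differ from that of Nfe2l2 was not tested. The arrays measure transcripts, and NRF2 protein is controlled largely by its degradation through KEAP1.

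Bach2, a repressor that binds the same element and restrains effector differentiation of T cells, rose as well. It measured 8.48, 8.66 and 8.54 in Tc1 and 9.99, 9.92 and 9.92 in Tc17, a difference of 1.41 ± 0.08 (SE, limma adjusted p = 0.0113). Its relative Bach1, the main repressor of Hmox1, measured 8.01, 8.83 and 8.68 in Tc1 and 7.74, 8.03 and 7.95 in Tc17, and its groups overlapped (difference −0.52 ± 0.27 SE, limma adjusted p = 0.522). Nfe2l2 and Bach2 were the 2 calls among 13 measured regulators of the NRF2 pathway, whose median was 0.01. Cul3, part of the ligase that degrades NRF2, had a difference of −0.17 and did not pass. In fits without 1 sample Nfe2l2 had differences from 1.12 to 1.32 against 1.22 (limma adjusted p = 0.0695 to 0.127) and Bach2 from 1.36 to 1.47 (limma adjusted p = 0.0684 to 0.0848) against 1.41 with all samples; neither passed in these smaller fits.

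Of 24 other NRF2 target genes measured, 1 fell, 0 rose, and the median was 0.01. The gene that fell was Me1, the cytosolic malic enzyme, which yields NADPH; it measured 9.38, 9.16 and 9.29 in Tc1 and 5.29, 4.95 and 5.19 in Tc17. All 3 Tc17 arrays were below their medians, so the fold holds for intensities. Me1 fell by 4.12 on the log2 scale (limma adjusted p = 0.00256). Me1 passed without any single sample (limma adjusted p = 0.0182 to 0.0316). Akr1b8, an aldo-keto reductase, and Abcc4, an organic anion exporter, had differences of 0.78 and 0.67 and did not pass. The 3 Tc1 arrays of Akr1b8 were below the array medians, so its difference holds for intensities. Ftl1, G6pdx, Tkt, Akr1b3 and Trim16l, also listed, had no probe set annotated to their symbol alone and were not measured.

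Me1 was also the single call among 17 genes of NADPH supply, whose median was 0.02. Mthfd2l and Aldh1l2, of the mitochondrial folate cycle, had differences of 0.44 and 0.41 there. G6pdx, a further listed gene of NADPH supply, was not measured.

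**Figure D4:**
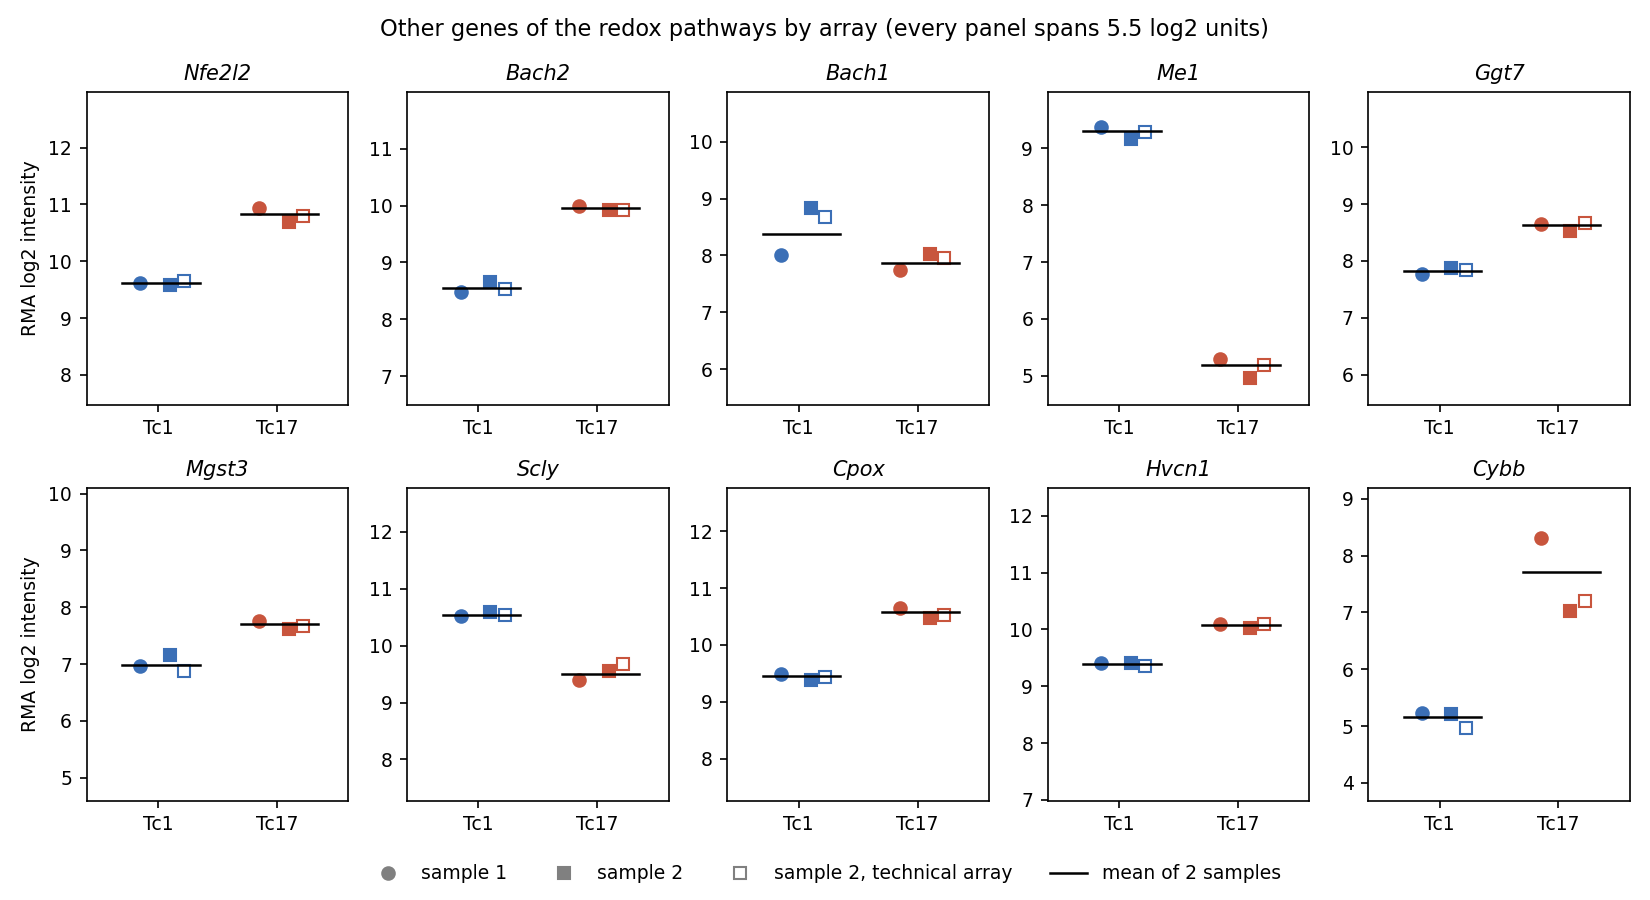
Each panel shows 1 gene outside the 10, with RMA log2 intensity on the y axis and culture on the x axis, and symbols as in the plot of the 10 genes by array. Nfe2l2, Bach2, Ggt7, Mgst3, Cpox and Hvcn1 are higher in Tc17, Me1 and Scly lower, and Bach1 and Cybb, which did not pass, show the widest gaps between samples 1 and 2 of a group.

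Genes around selenium and haem gave 1 call each. Of 21 measured genes of selenoprotein synthesis and further selenoproteins, Scly fell and 0 rose, with a median of −0.03. Scly, the lyase that frees selenium from selenocysteine, measured 10.52, 10.58 and 10.54 in Tc1 and 9.40, 9.55 and 9.67 in Tc17 (difference −1.03 ± 0.10 SE, limma adjusted p = 0.0328; −1.14 to −0.93 without 1 sample, at 0.0853 to 0.152). Sephs2, which makes the selenium donor, and Lrp8, a receptor for selenoprotein P, had differences of −0.46 and −0.39 and did not pass. The selenoprotein genes Gpx1, Gpx4 and Txnrd1 had differences of 0.15, −0.14 and −0.08 in the same arrays.

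Of 17 measured genes of haem and iron handling Cpox rose and 0 fell, with a median of 0.10. Cpox, an enzyme of haem synthesis, went from 9.45 ± 0.05 to 10.57 ± 0.10 (SD, n = 2; difference 1.12, limma adjusted p = 0.0205; 1.05 to 1.19 without 1 sample, at 0.084 to 0.116). The iron transporter gene Slc11a2 and the transferrin receptor gene Tfrc had differences of −0.46 and 0.45 and did not pass. None of 14 genes of lipid peroxidation and ferroptosis passed (median 0.04); Sat1, of polyamine breakdown, and Alox15, a lipoxygenase, had differences of 0.30 and 0.22.

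Among 15 measured genes of the NADPH oxidases, which produce superoxide, Hvcn1 rose and 0 fell, with a median of −0.03. Hvcn1, a proton channel that sustains the oxidase, measured 9.41, 9.42 and 9.36 in Tc1 and 10.10, 10.03 and 10.10 in Tc17 (difference 0.68 ± 0.07 SE, limma adjusted p = 0.0396; 0.67 to 0.70 without 1 sample, at 0.166 to 0.236). It also missed the threshold without the technical arrays and with trend and robust moderation. Cybb, the catalytic subunit of the phagocyte oxidase, measured 5.23, 5.21 and 4.97 in Tc1, below the array medians, and 8.32, 7.02 and 7.21 in Tc17, and did not pass (limma adjusted p = 0.0946). Ncf1, a cytosolic subunit, had a difference of −0.61 ± 0.07 (SE, limma adjusted p = 0.0505). Of all 207 genes measured in the 14 lists of the surrounding pathways, 6 rose and 2 fell, and their median was 0.02. Over all 22180 genes 0.992% were called higher and 0.591% lower.

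The cell identity of the arrays was checked on markers. All 8 measured markers of T cells, Cd8a and Cd8b1 among them, were above the median of every array, and Ifng and Tbx21 were higher in Tc1 and Il17a and Il17f higher in Tc17. Of 13 macrophage and monocyte markers, Lyz2 rose in Tc17; the summed level of the list ran from 79.1 to 80.9 log2 units over the Tc1 arrays and from 84.6 to 86.0 over the Tc17 arrays. Without Lyz2 the sums were 73.7 to 75.2 and 75.9 to 76.8, and 5 of the 12 markers left, Adgre1 and Cd14 among them, were at or below the median on all arrays. Another 5, Csf1r and Cd68 among them, were above the median on all arrays. The median difference of the 12 was 0.11, and none of them was called. Of 8 neutrophil markers Ly6g rose, and the other 7 were at or below the median on all arrays (summed level 36.1 to 36.5 in Tc1 and 36.2 to 36.7 in Tc17). The summed macrophage level was thus higher in Tc17, as was the level of Cybb, whereas the levels of Gpx8 and Hmox1 were lower; the part of such cells in these differences was not tested. The B cell, dendritic cell, NK cell and erythroid lists, and the markers of CD4 cells, held no called gene, with median differences from −0.09 to 0.32. Signal was not absent there. Above the median of every array were 2 of 2 CD4 markers, 2 of 7 B cell markers and 1 of 7 dendritic cell markers. So were 1 of 5 NK cell markers, Eomes (difference −1.18, limma adjusted p = 0.0583), and 1 of 2 measured erythroid markers, of 9 listed.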

How the data were processed

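The deposited values were log2 intensities; the submitters' processing notes name RMA and Partek as the authors' tools. RMA corrects background, normalizes arrays by quantiles and sums up a probe set's probes, which pulls array distributions together. Versions, genome build and which arrays were normalized jointly are not given in the sources used here.

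The technical array was averaged with sample 2 of its group. Differences were fitted with limma 3.58.1 (R 4.3.3, lmFit and eBayes) on 2 against 2 samples over all 41345 probe sets, with no filter and Benjamini-Hochberg adjustment; the fit had 2 residual and 2.63 prior degrees of freedom. The p-values rest on the spread between these samples, moderated by limma toward a spread pooled over all probe sets. The SEs are moderated too. With 2 samples per group an SE from a gene's own samples would equal their pooled SD. For Gpx8 the SE was 0.26 beside SDs of 0.39 and 0.38, and for Txnip 0.07 beside SDs of 0.0039 and 0.04. The small number of samples limits precision. The fitting code was tested on simulated data. In the platform annotation 23521 probe sets carried 1 symbol, 1814 carried more and 16010 carried none; a gene was represented by its brightest single-symbol probe set. All 10 genes matched RefSeq by Entrez identifier.

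The genes, the lists and the tests were chosen with earlier results of these data known. Named genes were the 10, every called gene of a list (the 4 largest if over 5), and the 2 largest uncalled. Figures used matplotlib 3.10.9.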

Additional observations from a re-analysis of the deposited data

How the results depend on the processing

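Over 15 alternative settings Gpx8 stayed lower in Tc17 in all, and passed in the 11 that kept all 4 samples; with 1 sample left out its difference ran from −2.78 to −2.23 and it passed in none of the 4, in which a group of 1 sample borrows the other group's spread. The number of the 10 genes called lower, 1, was 2 with 6 separate arrays, with the random block and with the technical array averaged with sample 1, where Hmox1 joined. It was 0 in each fit without 1 sample, and the number called higher was 0 throughout. Signs turned only in fits without 1 sample: Gpx1 ran from −0.023 to 0.32, Srxn1 from −0.0017 to 0.21 and Txnrd1 from −0.22 to 0.052. Gpx4, Gclc, Gclm, Txnip and Sod2 kept sign and stayed uncalled in all 15.

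Of the 207 surrounding genes, 6 higher and 2 lower became 17 and 12 with 6 separate arrays, 17 and 11 with the random block, and 13 and 7 with the technical array averaged with sample 1. The higher calls were 3 when the technical array was left out and 3 with trend and robust moderation. With only single-symbol probe sets there were 9 higher and 4 lower calls, and the same when a gene's probe sets were averaged. A filter on low values, which left 175 of these genes, gave 7 higher and 3 lower. Without 1 sample there were 0 to 1 higher and 1 lower. The replicate block (replicate number in the fit) gave 13 higher and 6 lower among these, 1535 probe sets called in all against 418, and Gpx8 at −2.51 (limma adjusted p = 0.001); no member's call changed. The numbers share no stated origin, and deviations of same-numbered samples correlated at 0.31 over probe sets, from 2 pairs. With a filter on low values 648 probe sets were called, with single-symbol probe sets 866, with probe sets averaged by gene 874, with 6 arrays 2318, with the random block 2074, with the technical array moved 1581, and without 1 sample 48 to 125. The calls under the 6-array settings treat repeats of a sample as samples.

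All differences rest on 2 samples per group and on intensities without detection calls. The intervals of the 8 near-level genes include 0, which does not show that the cultures were alike.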
